A study of Homo sapiens with 8 samples.

Results

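ADM2, ADM, GDF15, STC2, STC1, VEGFA, FGF21, INHBE and ANGPTL4 encode hormones, growth factors and other secreted proteins that cells make under stress. These 9 genes, of 60617 in the count table, were followed in MCF-10A, an established human cell line of breast epithelium that forms no tumours. ADM2 was chosen by its large rise with the Hsp70 inhibitor JG-98 in these same counts, so its values in all comparisons are given as descriptions with no test. The other 8 were chosen as known secreted outputs of the stress factor ATF4 or of cell stress. All 9 were in the table, and all passed the filter on low counts that left 17693 genes for testing. FGF21 and INHBE passed it only through libraries of treated cells, where they were higher.

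RNA was sequenced from poly(A)-selected transcripts of cells labelled Empty or NeuT, each left untreated or given 1 µM JG-98 for 12 h. Each of the 4 groups had 2 libraries. The labels name no allele, vector or clone behind the NeuT and Empty names, and all cells were grown in the same medium with horse serum, epidermal growth factor, hydrocortisone, insulin and cholera toxin. Nothing in the labels says that the 2 replicates of a group were separate cultures, so p-values measure the spread between these libraries, which may be technical. JG-98 is a small molecule that binds Hsp70 chaperones, which help other proteins to fold.

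Stressed cells can slow protein synthesis by phosphorylating the initiation factor eIF2α, and this favours translation of ATF4, which switches on genes for amino acid supply, redox balance and, with CHOP, cell death. Some ATF4 targets are secreted: GDF15 signals to the hindbrain to lower appetite, and FGF21 adjusts metabolism in liver and fat. ADM, VEGFA and ANGPTL4 are better known as targets of hypoxia-inducible factors, and ANGPTL4 also of PPAR receptors. RNA was measured here, not secreted protein.

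Total counts ranged from 37341458 in Empty JG-98 replicate 1 to 56861971 in Empty JG-98 replicate 2. A count of 0 in a library allows up to 3 counts, or 0.0511 to 0.0787 CPM (counts after division by a TMM-scaled library size), for counting error only. Replicates of untreated cells lay closer together than those of treated cells: the median gene differed between replicates by 0.10 on the log2 scale in both untreated groups, by 0.13 in treated Empty and by 0.16 in treated NeuT, so the members' drug values in NeuT are also given without each treated library where that matters. All 8 basal breast epithelial markers had at least 10 counts in every library, and the keratins KRT5, KRT14 and KRT17 were above 1000 RPKM (CPM per kilobase of exon). TP63, on the same list, had 0.360 to 1.26 RPKM. Luminal markers were also present: KRT8 had 275 to 322 RPKM, KRT18 216 to 318 and GATA3 8.51 to 9.46. The luminal markers ESR1 and PGR were low, with 0.815 to 1.08 RPKM and 0 to 5 counts. Of the leukocyte markers PTPRC and CD3E had 0 to 4 and 0 to 2 counts and CD14 191 to 662. Of the fibroblast markers COL3A1 had 1 to 10 counts, PDGFRB 13 to 44, COL1A1 218 to 319 and DCN 124 to 4189. The summed fibroblast list was 0.81 to 0.92 RPKM in Empty and 5.60 to 6.74 RPKM in NeuT, mostly from DCN in NeuT (up to 6.18 RPKM), and the summed leukocyte list 3.04 to 4.21 and 6.50 to 7.44 RPKM, nearly all from CD14. Their part in the differences between lines was not tested, and in bulk RNA fewer cells making a transcript and less of it per cell cannot be told apart.

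Upstream sequences are shown for ADM2, ADM and ANGPTL4, because ADM2 and its relative ADM differed in what happened with the drug and ANGPTL4 had the highest level per length of the 9. They are the 250 bases before the gene's start as RefSeq gives it, on the plus strand of GRCh38.p14. RefSeq's table lists 6 of the 9 members (ADM2, ADM, GDF15, STC2, FGF21 and ANGPTL4). Capitals mark a hypoxia response element core (ACGTG or GCGTG) or a TATA box (TATAAA), searched on both strands. The ADM2 window is chr22:50481293-50481542, the ADM window chr11:10304823-10305072 and the ANGPTL4 window chr19:8363905-8364154.
ADM2: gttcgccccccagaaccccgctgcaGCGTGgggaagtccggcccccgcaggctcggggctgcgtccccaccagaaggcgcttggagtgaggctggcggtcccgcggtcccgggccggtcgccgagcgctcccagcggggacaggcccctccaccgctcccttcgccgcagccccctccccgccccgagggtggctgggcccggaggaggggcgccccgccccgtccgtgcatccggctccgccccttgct
ADM: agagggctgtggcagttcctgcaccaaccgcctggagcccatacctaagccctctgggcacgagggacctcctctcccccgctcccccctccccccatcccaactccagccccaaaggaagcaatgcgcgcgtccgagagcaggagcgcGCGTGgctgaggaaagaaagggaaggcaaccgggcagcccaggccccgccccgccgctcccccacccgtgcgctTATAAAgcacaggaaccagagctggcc
ANGPTL4: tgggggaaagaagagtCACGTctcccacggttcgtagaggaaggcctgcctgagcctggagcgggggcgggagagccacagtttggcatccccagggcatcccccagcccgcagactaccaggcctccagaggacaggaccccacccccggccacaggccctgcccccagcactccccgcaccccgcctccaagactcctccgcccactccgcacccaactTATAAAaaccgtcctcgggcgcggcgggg

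A hypoxia element core began 225 bases before the start of ADM2, 101 before that of ADM and 234 before that of ANGPTL4, and STC2 had 3 matches. RefSeq and the count table place the starts of GDF15, STC2, FGF21 and ANGPTL4 differently. Counting exons of any gene, the STC2 window lies in exons of the table with all 250 bases, that of GDF15 with 241 and that of FGF21 with 101. The FGF21 window ends at 48755523 and FGF21 itself begins at 48755559 in the table, so those 101 bases lie in exons of another gene. The ANGPTL4 window lies inside the gene's span in the table. GDF15 and FGF21 had no such core in their windows, and 43.2% of the 35116 RefSeq promoters of the same length held one. TATA boxes began 27 bases before the start of ADM and 29 before those of GDF15 and ANGPTL4, and were in 10.7% of promoters. The core of the C/EBP-ATF response element (TGATGNAA, both strands), a composite site that ATF4 can bind, occurred in 3.14% of promoters. Among the 6 members FGF21 alone held it, on the minus strand, starting 54 bases before its start. The match stands in capitals in the 30 bases at chr19:48755459-48755488, plus strand, shown because this is the one ATF-type site found in the windows.
FGF21: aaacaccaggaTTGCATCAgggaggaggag
Matches of letters are descriptions of these windows and do not show binding.

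ADM2, also called intermedin, is a peptide of the calcitonin family (ENSG00000128165, chromosome 22, 50481543 to 50486440, plus strand, GRCh38). Its level in untreated Empty cells was 0.194 and 0.280 CPM, from 11 and 16 counts, and in untreated NeuT cells 0.384 and 0.390 CPM, from 21 counts in each library. With JG-98 it was 2.49 and 1.94 CPM in Empty, from 95 and 114 counts. In treated NeuT it was 5.00 and 8.11 CPM, from 270 and 438 counts. Every treated library was above every untreated one, and both treated NeuT libraries were above both treated Empty libraries. Pooled counts were 9.11-fold higher with the drug in Empty (95% exact interval 6.08 to 14.1) and 16.9-fold higher in NeuT (12.4 to 23.7), where the intervals cover counting error only. These values chose the gene and carry no test. Between untreated lines the fitted difference was 0.70 on the log2 scale (SE 0.41), also with no test, since a rise with the drug is measured against these libraries.

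**Figure D1:**
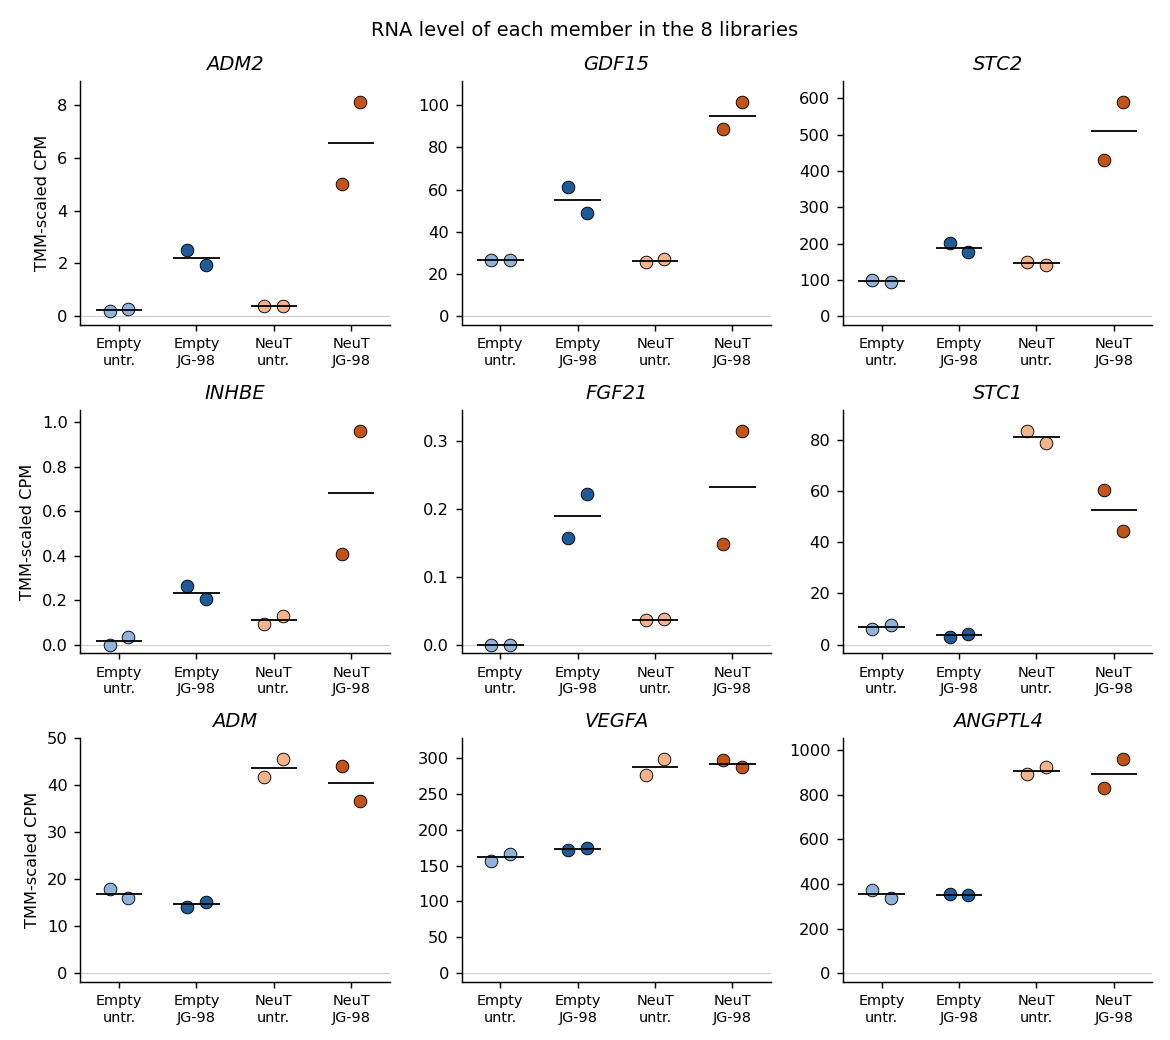
Level of each of the 9 genes in each library, in CPM, by cell line and treatment, with 1 point per library, a line at the group mean and an axis scaled per gene. The treated ADM2 points, 1.94 to 8.11 CPM, all sit above the untreated ones, while ADM, VEGFA and ANGPTL4 separate by cell line.

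ADM, adrenomedullin, is a vasodilator peptide that shares its receptor with ADM2 (chromosome 11, 10305073 to 10307397, plus strand). It had 17.9 and 16.1 CPM in untreated Empty and 14.1 and 15.2 CPM with the drug. In NeuT it had 41.8 and 45.5 CPM untreated and 44.0 and 36.8 CPM with the drug. Every NeuT library was above every Empty one. Treated libraries lay below untreated ones in Empty and overlapped with them in NeuT. The log2 change with JG-98 was -0.21 in Empty (SE 0.098, adjusted p = 0.505) and -0.11 in NeuT (SE 0.089, adjusted p = 0.605, edgeR with Benjamini-Hochberg adjustment). The 95% intervals of the fold were 0.749 to 0.999 in Empty and 0.812 to 1.05 in NeuT. Per length, ADM2 had 0.588 and 0.947 per 100 of ADM in untreated Empty and 9.57 and 6.95 with the drug. In NeuT the ratio was 0.498 and 0.464 per 100 untreated and 6.15 and 12.0 with the drug, so ADM remained the higher of the pair in every library.

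GDF15, a distant member of the TGF-β family, rose with JG-98 in both lines (chromosome 19, 18374731 to 18389176, plus strand). It had 26.8 and 26.5 CPM in untreated Empty and 61.4 and 48.9 CPM with the drug. In NeuT it had 25.8 and 27.0 CPM untreated, a range that holds both untreated Empty values, and 88.6 and 101.4 CPM with the drug. Treated and untreated libraries did not overlap in either line, as for 20.9% of all genes that were higher in Empty and 21.9% in NeuT. The log2 change was 1.05 in Empty (SE 0.096, adjusted p = 9.98e-05) and 1.85 in NeuT (SE 0.096, adjusted p = 1.58e-07, edgeR with Benjamini-Hochberg adjustment). It passed under all 17 alternative analyses in each line. In the authors' deposited table GDF15 ranked 6 by p-value in Empty and 2 in NeuT.

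Leaving out ADM2, and FGF21 and INHBE for the way they passed the filter, 6 members can be counted. GDF15 was the 1 of these called with JG-98 in Empty, where 0.339% of all tested genes were called (adjusted p under 0.05), 0.260% higher and 0.0791% lower. The share of those calls that were higher was 76.7%, but 31.25% without Empty untreated replicate 1, 35.3% without replicate 2 and 33.3% without Empty JG-98 replicate 1, where 16, 17 and 9 genes were called. In NeuT 2 of the 6 were called, both higher (GDF15 and STC2), against 3.01% of all genes in either direction, 2.01% higher and 1.01% lower. The members were picked as known stress outputs, so the counts are descriptions.

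STC2 and STC1 are stanniocalcins, glycoproteins that block the metalloprotease PAPP-A, which frees insulin-like growth factors from a binding protein. STC2 (chromosome 5, 173314713 to 173329503, minus strand) had 99.5 and 93.9 CPM in untreated Empty and 200.6 and 177.9 CPM with the drug. NeuT cells had 148.4 and 142.1 CPM untreated and 429.0 and 588.6 CPM with the drug. All 4 groups were separate, with untreated Empty lowest and treated NeuT highest. STC2 rose in NeuT by 1.81 on the log2 scale (SE 0.15, edgeR Benjamini-Hochberg adjusted p = 0.00215), and passed under all 17 alternatives.

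In Empty the STC2 log2 change of 0.97 (SE 0.15) did not pass (edgeR, Benjamini-Hochberg adjusted p = 0.0994). That call rested on the analysis: it passed in 8 of 17 alternatives, whose adjusted p ran from 2.94e-11 to 0.57, with nearly the same log2 change (0.88 to 1.05). Among them were DESeq2 (2.12e-05), limma-voom (0.00267) and each fit without a treated NeuT library (3.24e-11 without replicate 1, 2.94e-11 without replicate 2). The authors' deposited table gives STC2 in Empty a log2 fold change of 0.97 and an adjusted p of 0.00147.

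STC1 (chromosome 8, 23841929 to 23854806, minus strand) was higher in NeuT, as STC2 was, but lower in treated than in untreated libraries. It had 6.22 and 7.78 CPM in untreated Empty and 3.02 and 4.26 CPM with the drug. NeuT cells had 83.4 and 78.8 CPM untreated and 60.5 and 44.5 CPM with the drug. Treated libraries were below untreated ones in each line without overlap, as for 22.2% of all genes in Empty and 22.9% in NeuT. The log2 change was -0.91 in Empty (SE 0.23, adjusted p = 0.248) and -0.63 in NeuT (SE 0.16, adjusted p = 0.107, edgeR with Benjamini-Hochberg adjustment), and neither passed. In Empty 5 of 17 alternatives passed (adjusted p 3.14e-07 to 0.763), and in NeuT 4 of 17 (1.39e-07 to 0.314). Leaving out NeuT JG-98 replicate 1 gave calls in both lines (edgeR, Benjamini-Hochberg adjusted p = 0.00466 in Empty and 0.000233 in NeuT), and leaving out replicate 2 gave one in Empty (adjusted p = 0.0049). The authors' deposited table gives STC1 an adjusted p of 0.185 in Empty and 0.00487 in NeuT.

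The ratio of STC2 to STC1 therefore moved with both line and drug. Per length, STC2 was 10.8 and 8.14 times STC1 in untreated Empty libraries and 44.8 and 28.2 times with the drug. In NeuT the levels were nearly equal untreated, with ratios of 1.20 and 1.22, and STC2 was 4.79 and 8.93 times STC1 with the drug. The 4 groups of ratios overlapped only between untreated Empty and treated NeuT, and no test was run on the ratio.

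**Figure D2:**
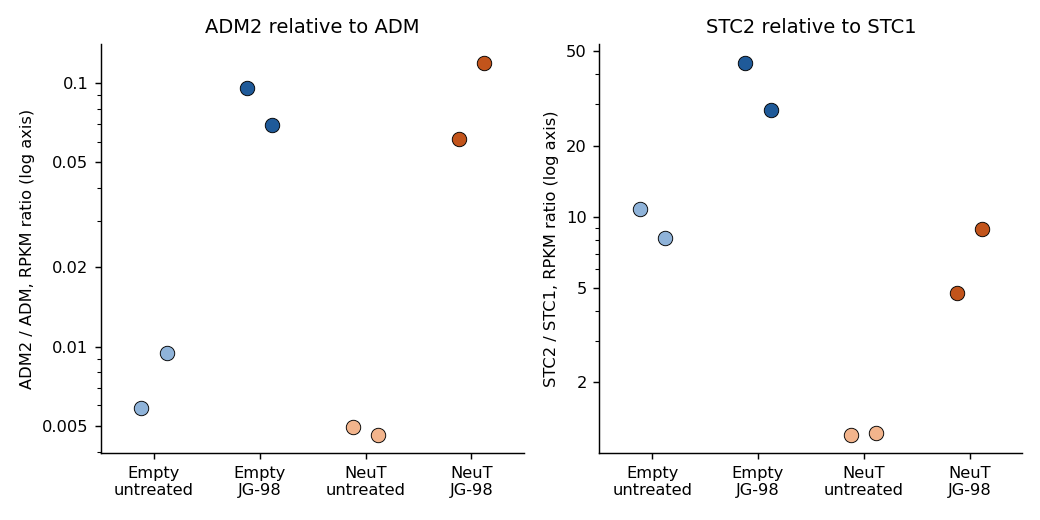
Ratio of RPKM within 2 pairs of relatives, ADM2 to ADM and STC2 to STC1, by group on log axes, with 1 point per library. ADM2 stays far below ADM even with JG-98, and STC2 and STC1 are near equality only in untreated NeuT cells (1.20 and 1.22).

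INHBE and FGF21 were at the edge of detection. INHBE encodes the inhibin βE subunit, which pairs with itself to form activin E (chromosome 12, 57452323 to 57459280, plus strand). It had 0 and 2 counts in untreated Empty, 10 and 12 with the drug, 5 and 7 in untreated NeuT and 22 and 52 with the drug. Treated libraries were above untreated ones in each line. Pooled counts were 12.9-fold higher in Empty (3.18 to 113.5) and 6.20-fold higher in NeuT (3.34 to 12.5; exact 95% intervals for counting error only). In NeuT the fitted log2 difference was 2.61 (SE 0.64, edgeR Benjamini-Hochberg adjusted p = 0.034) and in Empty 3.55 (adjusted p = 0.181). The 15 alternatives in Empty gave log2 changes of 2.64 to 6.62, and only the edgeR fit without a filter passed (adjusted p = 0.0228). INHBE entered the test only through libraries where it was high, so its adjusted p is a description and it is counted with no other member.

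In NeuT the adjusted p of INHBE stayed under 0.05 in 8 of 15 alternatives. It was above with limma-voom (adjusted p = 0.0684), in the fit of 4 libraries alone (0.0646), and without Empty JG-98 replicate 1 (0.0628) or replicate 2 (0.0622). It was also above without NeuT untreated replicate 1 (0.282) or replicate 2 (0.245). Without NeuT JG-98 replicate 2, the library with 52 counts, the log2 change was 1.85 and the adjusted p 0.411. Of INHBE's exonic bases 16.4% overlap another gene, ENSG00000287200, whose mean count was 7.75, and the labels do not say how reads in such overlaps were counted. The authors' deposited table gives INHBE in NeuT an adjusted p of 0.0637.

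FGF21 (chromosome 19, 48755559 to 48758333, plus strand) had 0 counts in both untreated Empty libraries and 6 and 13 with the drug. In NeuT it had 2 counts in each untreated library and 8 and 17 with the drug. Its treated libraries were thus above its untreated ones in both lines, at levels of 0.231 CPM or less on average. For 19 pooled counts against 0 in Empty, the exact 95% lower limit of the ratio was 5.49, and the pooled treated level was 7.45 times a floor of 3 counts over the untreated group. In NeuT 25 pooled counts against 4 gave a ratio of 6.28 (exact 95% interval 2.17 to 24.8). The adjusted p was 0.117 in Empty and 0.157 in NeuT (edgeR, Benjamini-Hochberg), and over 14 alternatives it ran from 0.0262 to 0.705 in Empty and from 0.0947 to 0.616 in NeuT. These too are descriptions, since FGF21 entered through its treated libraries.

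VEGFA, the main growth factor for blood vessels, and ANGPTL4, an inhibitor of lipoprotein lipase, had the smallest fitted changes with the drug in both lines. VEGFA (chromosome 6, 43770184 to 43786487, plus strand) had 156.6 and 166.8 CPM in untreated Empty and 172.0 and 174.0 CPM with the drug. VEGFA in both treated Empty libraries was above both untreated ones, as for 20.9% of all genes. Its NeuT values were 276.7 and 298.1 CPM untreated and 296.7 and 287.1 CPM with the drug, which overlap. Its log2 change was 0.10 in Empty (SE 0.057, adjusted p = 0.608) and 0.02 in NeuT (SE 0.056, adjusted p = 0.901; edgeR, Benjamini-Hochberg), and the 95% intervals of the fold ended at 1.16 and 1.10.

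ANGPTL4 (chromosome 19, 8363289 to 8374370, plus strand) had 374.6 and 334.9 CPM in untreated Empty and 354.7 and 349.9 CPM with the drug. The NeuT values were 891.8 and 923.9 CPM untreated and 830.2 and 958.7 CPM with the drug. Treated libraries lay inside the untreated range in Empty, and the untreated ones inside the treated range in NeuT. The log2 change was -0.01 in Empty (adjusted p = 0.978) and -0.02 in NeuT (adjusted p = 0.923; edgeR, Benjamini-Hochberg), with fold intervals of 0.899 to 1.10 and 0.892 to 1.09. These intervals leave out changes of the size that GDF15 had in either line.

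**Figure D3:**
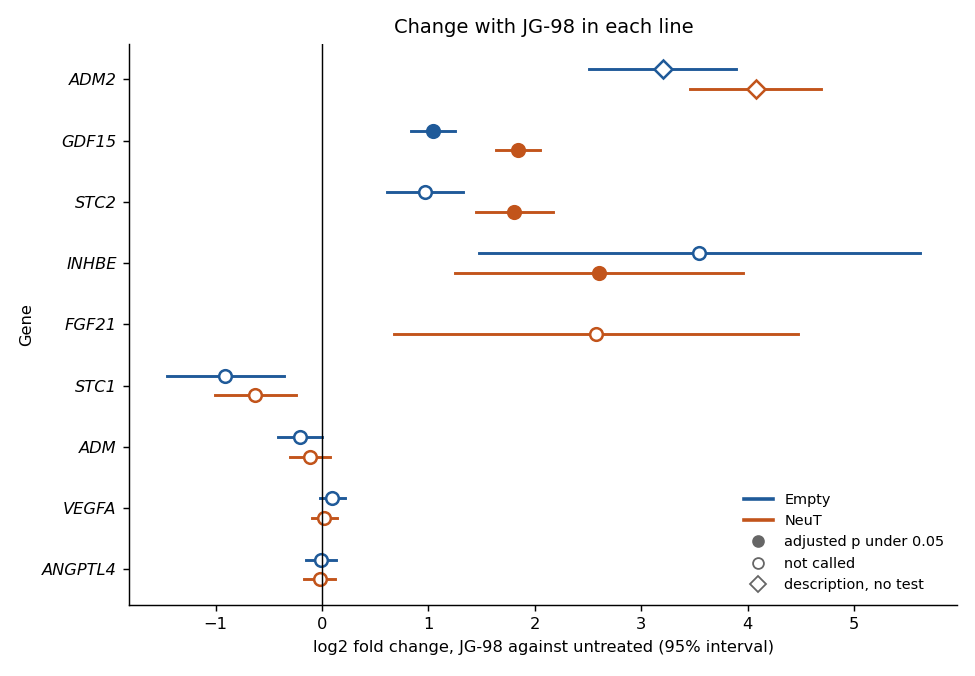
Fitted log2 change with JG-98 for each gene in Empty and NeuT cells, with bars for the 95% interval. GDF15 is higher in both lines (1.05 and 1.85), and VEGFA and ANGPTL4 lie near 0, with VEGFA at 0.10 in Empty. INHBE has wide bars from its low counts, and FGF21 in Empty is not drawn because its untreated libraries had 0 counts.

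Whether the drug response differed between lines was tested as an interaction of line and drug. With edgeR 0 of the 6 members counted passed, against 0.00565% of all genes (1 gene), and 2 had an unadjusted p under 0.05. Those 2 were GDF15, whose log2 change was larger by 0.80 in NeuT (adjusted p = 0.122), and STC2, larger by 0.84 (adjusted p = 0.509; edgeR, Benjamini-Hochberg). GDF15 passed in 4 of 16 alternatives: without a filter (2.98e-11), with DESeq2 (0.000213), and without Empty JG-98 replicate 1 (0.0112) or NeuT JG-98 replicate 1 (0.00128). STC2 passed in 3 of 16: without a filter (0.000729) and without NeuT JG-98 replicate 1 (3.21e-08) or replicate 2 (0.000793). For VEGFA and ANGPTL4 the ratio of the drug folds, NeuT over Empty, had intervals of 0.844 to 1.07 and 0.862 to 1.14. For ADM2 that ratio was 1.83 (0.904 to 3.72), given with no test.

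STC1, ADM, VEGFA and ANGPTL4 differed more between lines than with the drug. In untreated cells 5 of the 6 members counted were called between NeuT and Empty, all higher in NeuT, against 42.0% of all genes in either direction, 21.2% higher and 20.8% lower. Of all calls between untreated lines 50.5% were higher in NeuT, and 40.7% with total counts in place of TMM. STC1 was 11.6-fold higher (8.50 to 15.8; log2 difference 3.53, SE 0.19, edgeR Benjamini-Hochberg adjusted p = 2.68e-06), the widest gap of the 5. ADM was 2.57-fold higher (2.24 to 2.95, adjusted p = 3.88e-09) and ANGPTL4 2.56-fold (2.31 to 2.83, adjusted p = 1.33e-10, both edgeR). VEGFA was 1.78-fold higher (1.64 to 1.93, edgeR adjusted p = 3.55e-09). These 4 passed under all 17 alternatives, and no library of 1 line reached into the range of the other, as for 36.1% of all genes that were higher in NeuT.

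STC2 was 1.50-fold higher in untreated NeuT (1.17 to 1.92, edgeR Benjamini-Hochberg adjusted p = 0.0192), and passed in 15 of 17 alternatives. It was lost with the replicate number as a block (adjusted p = 0.0635) and without Empty untreated replicate 2 (0.0737). GDF15 did not differ in its 4 untreated libraries beyond their spread (fold 0.992, interval 0.858 to 1.15, edgeR adjusted p = 0.938). The edgeR adjusted p at low counts was 0.075 for INHBE and 0.117 for FGF21. Without Empty untreated replicate 2 the value for INHBE was 0.0498.

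With JG-98 in both lines, all 6 members counted were called, all higher in NeuT, against 41.7% of all genes in either direction, 21.7% higher and 20.0% lower. Of all calls between treated lines 52.0% were higher in NeuT, and 41.0% with total counts in place of TMM. The other comparisons share these libraries, so the values stand side by side. STC1 was 14.1-fold higher (10.0 to 19.8), ADM 2.75-fold, ANGPTL4 2.54-fold and VEGFA 1.69-fold, each close to its value in untreated cells. STC2 was 2.69-fold higher (log2 difference 1.43, edgeR Benjamini-Hochberg adjusted p = 0.000298), and GDF15 1.73-fold (1.50 to 1.98, adjusted p = 6.32e-06). In all of these 6 the lines did not overlap with the drug, as for 34.0% of all genes that were higher in NeuT. FGF21 had 19 pooled counts in Empty and 25 in NeuT (edgeR adjusted p = 0.808). ADM2 was 2.98-fold higher (log2 difference 1.57), given with no test.

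INHBE was 2.96-fold higher in treated NeuT than in treated Empty (1.25 to 7.01, edgeR Benjamini-Hochberg adjusted p = 0.0419), a description for the same reason. The adjusted p stayed under 0.05 in 7 of 16 alternatives, and was above with total counts (0.0515), DESeq2 (0.0974), limma-voom (0.055) and the replicate block (0.052). Leaving out either untreated NeuT library (0.0547 without replicate 1, 0.0561 without replicate 2) or either treated Empty library (0.114 without replicate 1, 0.214 without replicate 2) also raised it above. Without NeuT JG-98 replicate 2 the adjusted p was 0.516.

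**Figure D4:**
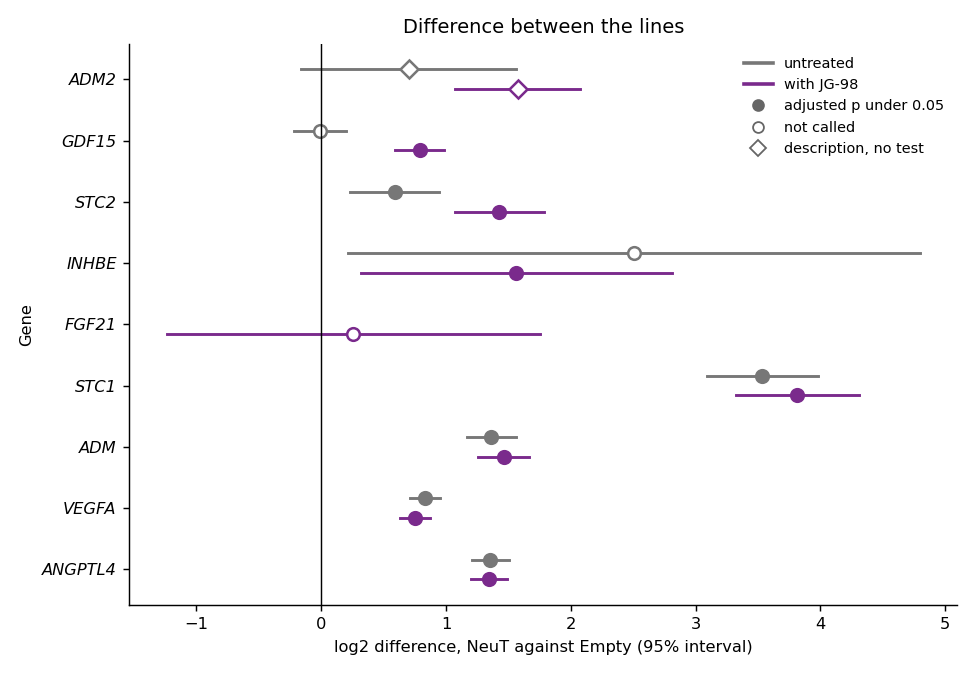
Fitted log2 difference of NeuT minus Empty for each gene, in untreated cells and with JG-98, with bars for the 95% interval. STC1 stands highest (3.53 and 3.81), GDF15 is at 0 untreated and at 0.79 with the drug, and FGF21 untreated is not drawn because Empty had 0 counts.

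Per kilobase of exon, ANGPTL4 made up most of the members' summed level in every library. The sum was 200.5 and 183.8 RPKM in untreated Empty, 225.0 and 214.2 with the drug, 454.4 and 468.9 in untreated NeuT, and 503.4 and 580.9 with the drug. ANGPTL4 held 75.5% and 73.6% of it in untreated Empty and 63.7% and 66.0% with the drug. In NeuT it held 79.3% and 79.6% untreated and 66.6% and 66.7% with the drug. The share of STC2 was 8.10% and 8.34% in untreated Empty and 14.6% and 13.6% with the drug. In NeuT it was 5.33% and 4.94% untreated and 13.9% and 16.5% with the drug, so STC2 took a larger share in every treated library than in any untreated one. VEGFA's length counts every annotated exon (14431 bases), which lowers its value per kilobase if cells use shorter transcripts.

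Most receptors and binding partners of the members were low or did not pass a test with the drug. Of 29 on that list 19 could be tested, and with JG-98 0 were called in Empty (median log2 change 0.08, 4 with an unadjusted p under 0.05) and 1 in NeuT (median 0.05, 5 with an unadjusted p under 0.05), against 0.339% and 3.01% of all genes. DESeq2 and limma-voom also gave 0 and 1. That one was FST, follistatin, which binds activins, higher by 0.59 (SE 0.13, edgeR Benjamini-Hochberg adjusted p = 0.0183). CALCRL, the receptor that ADM2 and ADM use with a RAMP protein, had 12 to 32 counts per library. The partners RAMP1, RAMP2 and RAMP3 had at most 8, 3 and 0 counts. GFRAL, the GDF15 receptor, had 0 counts in all 8 libraries, and its partner RET at most 4. KLB, which FGF21 needs beside an FGF receptor, had at most 10 counts, while FGFR1 had 4.58 to 7.13 RPKM on average in a group.

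Between untreated lines, 9 of the 19 were higher in NeuT and 1 lower, where 21.2% of all genes were called higher and 20.8% lower, with a median of 0.35 against -0.02 over all genes. The largest was PAPPA, the protease that stanniocalcins inhibit, with 3.94 ± 0.49 CPM in Empty and 24.3 ± 0.016 CPM in NeuT (SD, n = 2), a log2 difference of 2.63 (edgeR Benjamini-Hochberg adjusted p = 2.37e-11). NRP1, a coreceptor for VEGFA, was higher by 0.82 (adjusted p = 2.13e-08). LPL, the lipase that ANGPTL4 inhibits, was the 1 lower, by -0.70 (adjusted p = 1.91e-05), at 23.9 ± 1.4 CPM in Empty and 14.7 ± 1.7 CPM in NeuT. FLT1, a VEGFA receptor, had at most 2 counts in a library. With JG-98 in both lines 8 were higher and 2 lower (21.7% and 20.0% of all genes), the second being the VEGFA receptor KDR at -0.93 (edgeR adjusted p = 0.0139).

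Of 22 relatives in the members' families 9 could be tested, and 0 were called with the drug in either line by edgeR, DESeq2 or limma-voom (median -0.04 in Empty and 0.15 in NeuT). Those with an unadjusted p under 0.05 numbered 0 in Empty and 1 in NeuT. The count of 0 of 9 is near the background of 0.339% and 3.01% of all genes called. VEGFB and VEGFC had log2 changes of -0.01 and -0.12 in NeuT. CALCB, a calcitonin-family gene like ADM2, had 0 to 4 counts in untreated NeuT and 18 and 20 with the drug, and did not pass (edgeR adjusted p = 0.134). In Empty its libraries overlapped, with 1 and 13 counts untreated and 4 and 21 with the drug (edgeR adjusted p = 0.78). Between untreated lines 3 were higher and 1 lower, and 4 of 9 is near the 42.0% of all genes called. INHBA, the subunit of activin A, was higher by 2.40 (edgeR adjusted p = 0.000481) and INHBB, the subunit of activin B, was lower, at 13.0 ± 0.10 CPM in Empty and 3.23 ± 0.36 CPM in NeuT (SD, n = 2, edgeR adjusted p = 5.77e-10).

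A list of 20 intracellular targets of ATF4 and CHOP was also followed. With JG-98, 7 of 20 were called higher in Empty (median log2 change 0.71) and 17 of 20 in NeuT (median 1.05). An unadjusted edgeR p under 0.05 was found for 18 of the 20 in Empty and 19 in NeuT. In the interaction of line and drug 11 of the 20 had one. There edgeR and limma-voom each called 0 of the 20 and 1 of all genes, and DESeq2 5 of the 20 and 19 of all genes. Over all genes 0.260% and 2.01% were called higher and the medians were -0.0033 and 0.00021. Of the 20 listed genes edgeR called 0 lower in either line. DESeq2 called 11 in Empty and 17 in NeuT, and limma-voom 10 and 18. In NeuT CHAC1, a glutathione-degrading enzyme, rose by 4.09 (SE 0.42, adjusted p = 0.0175) and ASNS, asparagine synthetase, by 3.16 (SE 0.45, adjusted p = 0.000672; edgeR, Benjamini-Hochberg). DDIT3, which encodes CHOP, rose by 1.33 in Empty (adjusted p = 0.00156) and 2.60 in NeuT (1.58e-07). DDIT4, CEBPB and PPP1R15A were not called in NeuT. Between untreated lines the list was mixed, with 7 higher in NeuT and 7 lower (21.2% and 20.8% of all genes), ATF4 itself among the lower (log2 difference -1.14, edgeR adjusted p = 9.43e-08).

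All 20 hypoxia targets were higher in untreated NeuT (median 0.91), against 21.2% of all genes. CA9, a carbonic anhydrase, was higher by 3.92 and EGLN3, an oxygen-sensing hydroxylase, by 2.46 (edgeR adjusted p = 0.000984 and 2.62e-07). All 20 were higher in treated NeuT too (median 0.98, against 21.7%). With JG-98 edgeR called 0 higher: 1 fell in Empty, BNIP3 by -0.37 (edgeR adjusted p = 0.0468), and 2 in NeuT, PFKFB3 by -0.45 and BNIP3 by -0.32 (adjusted p = 0.000974 and 0.0239), with medians of -0.17 and -0.15. Over all genes 0.0791% and 1.01% were called lower. Of the 20, 11 had an unadjusted p under 0.05 in Empty and 9 in NeuT, DESeq2 called 1 and 4, and limma-voom 0 and 3, so the BNIP3 call in Empty is not made by limma-voom.

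Of 16 p53 targets, a list that touches GDF15 because p53 can also induce it, 0 were called with the drug in Empty by edgeR, DESeq2 or limma-voom (median 0.02, 3 with an unadjusted p under 0.05) and 1 in NeuT, GADD45A, which rose by 0.86 (edgeR adjusted p = 0.0248; median 0.11, 7 with an unadjusted p under 0.05). Over all genes 0.339% and 3.01% were called. In untreated NeuT 14 of 16 were higher than in Empty (median 0.47, against 21.2% of all genes), with RRM2B at 0.98 and ZMAT3 at 0.81. With JG-98 15 of 16 were (against 21.7%). For GDF15 the untreated log2 difference was -0.01. Of 14 tested PPAR targets edgeR called 0 with the drug, with 1 at an unadjusted p under 0.05 in Empty and 3 in NeuT, and DESeq2 called 0 and 1. Between untreated lines 6 were higher and 5 lower in NeuT (median 0.08), against 21.2% and 20.8% of all genes. FABP4, a fatty acid carrier, was higher by 5.32, from 2 counts in each untreated Empty library and 78 and 84 in untreated NeuT. It passed the filter only through NeuT libraries, where it was high, so its value and its place in these counts are descriptions. With JG-98 in both lines 5 were higher and 6 lower, against 21.7% and 20.0%.

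**Figure D5:**
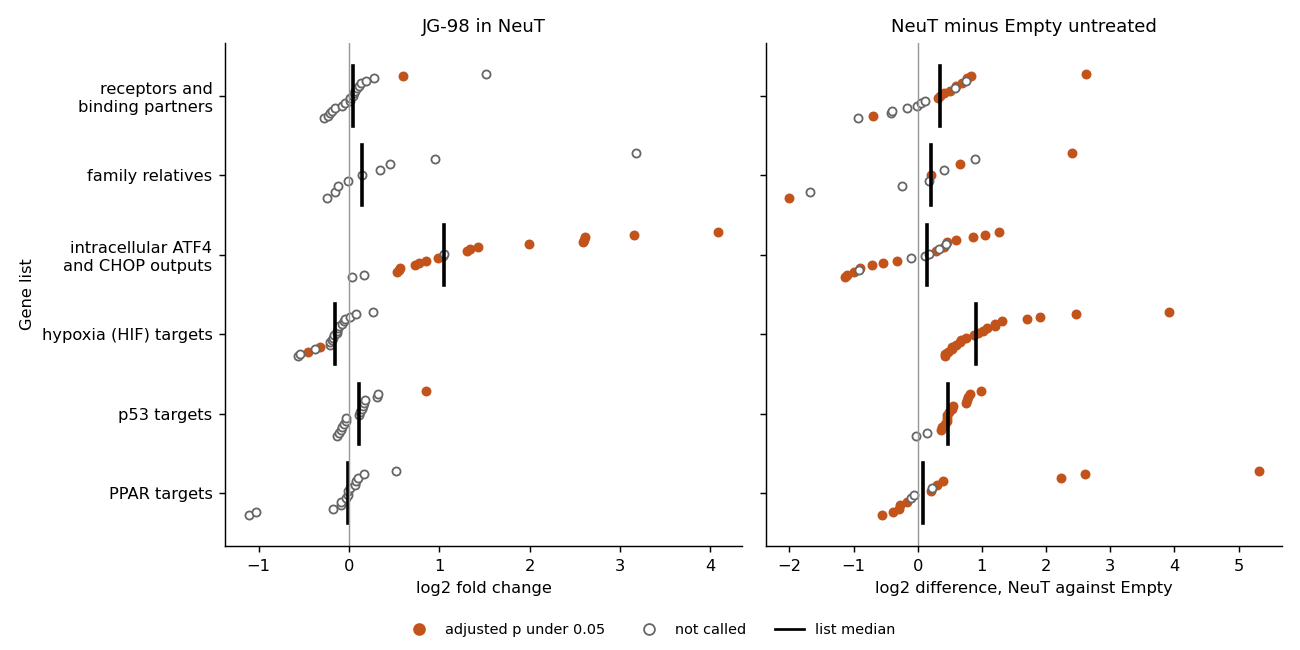
Log2 differences of the tested genes of each list, for JG-98 in NeuT and for NeuT minus Empty untreated, with called genes filled and a bar at the list's median. The ATF4 and CHOP list lies to the right with the drug (median 1.05) and the hypoxia list to the right between lines (median 0.91).

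The genes nearest in pattern to each member were found by the root-mean-square (RMS) difference of centred log2 CPM over the 8 libraries, among 12747 genes that have a symbol and average 50 counts or more. Nearest to ADM2 was CHAC1 (0.304), then DDIT3 (0.850) and KLHDC7B (0.856). For STC2 it was TRIB3 (0.219), MAP1B (0.239) and FIBIN (0.245), and for GDF15 KIF21B (0.227), JDP2 (0.229) and FIBIN (0.261). For STC1 the list was C1R (0.364), CA9 (0.409) and DEPP1 (0.437). A flat gene has a small distance more easily, so these values compare neighbours of 1 member and not members with each other.

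VEGFA was nearest to ADAMTSL4 (0.031), ANGPTL4 to KLHL29 (0.043) and ADM to LOXL2 (0.085). INHBE was nearest to KLHDC7B (0.766) and then ADM2 (0.854), and FGF21 to ADM2 (0.788) and CHAC1 (0.883). INHBE had 0 to 52 counts per library and FGF21 0 to 17, so counting error and the prior count weigh on these distances. The distance of STC2 was 0.318 from GDF15 and 1.76 from its relative STC1.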

How the data were processed

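RNA of 8 libraries (MCF-10A cells, Empty or NeuT, untreated or 1 µM JG-98 for 12 h, 2 replicates each, grouped by title) was sequenced. The authors deposited raw counts per gene, in featureCounts layout per the file headers. The submitters' processing notes name Trim Galore 0.5.0, FastQC 0.11.7, HISAT2 2.1.0, SAMtools 1.9, featureCounts 1.6.3, limma and the builds hg38 and GRCh38, with no roles. Strand use, the treatment of reads with several matches and the annotation release are not given in the sources used here. The authors also deposited a log2 fold change, mean log2 expression, p-value and adjusted p-value per gene and line, and a test score not used here, per the file headers. Columns of per-sample values left unused numbered 0. Symbols matched 60261 of 60617 identifiers.

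The members, gene lists and tests were chosen with earlier results of these data known. The deposited counts went into edgeR 4.0.16 (R 4.3.3): filterByExpr (minimum count 10, total 15), TMM, 1 robust quasi-likelihood fit of the 4 group means over all 8 libraries, Benjamini-Hochberg adjustment over 17693 genes, threshold 0.05. Standard errors are the size of the log2 change over the square root of F, and intervals are at 95% (fold intervals from those errors). With 2 libraries a group, an exact permutation test of 1 gene could not reach 0.05. Nearest genes (3 per member) used log2 CPM with a prior count of 0.5. Genes named from lists were the 2 largest called changes per list and contrast, plus others chosen after their values were seen. Scripts were tested on simulated data. Alternatives used DESeq2 1.42.0, limma 3.58.1, other scalings and filters, a replicate block and left-out libraries. The labels do not say whether replicate numbers pair the libraries. The correlation of replicate differences between groups was between -0.10 and 0.24, the highest being that of treated Empty with treated NeuT.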

Additional observations from a re-analysis of the deposited data

How the results depend on the processing

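Counts are over the 6 members without ADM2, FGF21 and INHBE. With JG-98 in Empty 1 member was called, against 2 with total counts, limma-voom or no robust estimation, and 3 with DESeq2, the 4 libraries alone or no filter. Leaving out 1 library gave 1 to 3, with 3 without NeuT JG-98 replicate 1 or replicate 2. In NeuT the count of 2 ran from 2 to 3. The interaction count of 0 became 2 without a filter and 1 with DESeq2, and 0 to 2 on leaving out 1 library, with 2 without NeuT JG-98 replicate 1 and 1 without Empty JG-98 replicate 1 or NeuT JG-98 replicate 2. The untreated line count of 5 ran from 4 to 5, and the treated one was 6 throughout. The cause of these moves was not tested.

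Called values reversed under no alternative. Values near 0 that were not called changed sign on leaving out 1 library: ANGPTL4 with JG-98 in Empty (-0.090 to 0.073) and in NeuT (-0.14 to 0.077), its interaction (-0.13 to 0.081), VEGFA in NeuT (-0.033 to 0.070), ADM in NeuT (-0.25 to 0.0048) and its interaction (-0.048 to 0.21), GDF15 between untreated lines (-0.028 to 0.033) and FGF21 between treated lines (-0.37 to 0.71).

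Over all genes, calls ranged from 9 (without Empty JG-98 replicate 1) to 417 (without NeuT JG-98 replicate 1) around 60 in Empty. Around 533 in NeuT they ranged from 132 (without NeuT untreated replicate 1) to 2133 (without NeuT JG-98 replicate 1), and around 1 for the interaction up to 777 (without NeuT JG-98 replicate 1). DESeq2 called 146 in Empty and 19 in the interaction, and no filter gave 282, 1000 and 138. The 4 libraries alone gave 205 in Empty and 185 in NeuT. With total counts 41.0% of treated line calls were higher in NeuT, against 52.0% with TMM. Of untreated line calls 40.7% were higher with total counts, against 50.5% with TMM.

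The replicate number as a block (replicate block) called 66 genes in Empty, 593 in NeuT, 1 in the interaction, 7497 between untreated lines and 7451 between treated lines. Whether the numbers pair the libraries is not given in the labels. Among the 6 members the block ended the call of STC2 between untreated lines. A crossed pairing of NeuT, added after seeing the data, called 454 genes and 3 members. Depth limits FGF21 and INHBE, at 52 counts or fewer per library.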
